A study of Saccharomyces cerevisiae with 15 samples.

Results

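Glycolysis and ethanol fermentation were followed through 10 genes of budding yeast, which were taken by their systematic names from the 6692 genes counted in each sample. They encode the glucose kinases (HXK1 or YFR053C, HXK2 or YGL253W and GLK1 or YCL040W), the glyceraldehyde-3-phosphate dehydrogenases (TDH1 or YJL052W, TDH2 or YJR009C and TDH3 or YGR192C), phosphoglycerate kinase (PGK1 or YCR012W), an enolase (ENO2 or YHR174W), pyruvate kinase (CDC19 or YAL038W) and the main pyruvate decarboxylase (PDC1 or YLR044C). The study set chemical inhibitors of histone acetyltransferases (HATs) against an intrabody, an antibody fragment made inside the cell, that binds histone H3 acetylated at lysine 9. RNA-seq was performed on 15 cultures of the mat-a yeast strain L40, 3 biological replicates in each of 5 conditions, all exposed for 1 h to 0.4% DMSO in SD-L medium. The Curcumin (200 µM) and CPTH2 (400 µM) groups were cells with the empty vector pL220 that received one of these HAT inhibitors. The scFv-58F group expressed the intrabody against acetylated H3 and the scFv-645 group an unrelated intrabody against neuroligin-2, both without a drug, and the DMSO group carried pL220 alone. All groups shared his{delta}200, trp1-901, ade2, Gal4 and a leu2 allele, besides the reporters LYS2::(lexAop)4-HIS3 and URA3::(lexAop)8-lacZ. The intrabodies were compared with a different strain, since each intrabody line was a separate transformant, whereas the drugs were applied to the DMSO group's own strain.

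Hexokinases and glucokinase trap glucose in the cell by phosphorylation, and the lower part of glycolysis then yields ATP, NADH and pyruvate. Budding yeast prefers to ferment pyruvate to ethanol even in air, through pyruvate decarboxylase and alcohol dehydrogenase, and its glycolytic mRNAs are among the most abundant of the cell. While glucose is plentiful HXK2 is the main kinase gene and its protein also takes part in glucose repression, whereas HXK1 and GLK1 are known to be induced when glucose runs low or under stress. Most genes of the lower pathway are activated by Rap1 and Gcr1.

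Between 9062694 and 18878167 reads per sample were counted on genes (median 12204400). Expression is given as CPM, the counts relative to a common library size after TMM scaling, a method that sets the bulk of genes equal between samples. The log2 CPM of replicates correlated across the 6588 tested genes at 0.989 to 0.997 in the groups other than Curcumin, but at 0.862 to 0.971 among the Curcumin replicates, and Curcumin replicate 3 was the lowest of its group in 9 of the 10 genes. The mating type was checked with 4 a-cell and 3 alpha-cell genes. STE2, the alpha-factor receptor of a cells, had 41.4 to 104 CPM over the 15 samples, while the alpha-factor gene MFALPHA1 had at most 1.30 CPM outside Curcumin and 3.98, 10.8 and 23.7 CPM in the Curcumin replicates. The 4 a-cell and 3 alpha-cell genes were all among the tested genes. Against DMSO 1 of the a-cell genes was called higher and 2 lower in Curcumin, and likewise 1 higher and 2 lower in CPTH2. The alpha-cell genes MFALPHA1 and MFALPHA2 were called higher in Curcumin, while 0 alpha-cell genes were called in CPTH2. In the intrabody strains 0 genes of either kind were called against DMSO. The part of mating-type genes in the results below was not tested. RNA came from whole cultures, so that fewer cells expressing a gene and less of its RNA per cell cannot be told apart.

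Levels between genes were compared as CPM per kilobase of gene length. In DMSO, TDH3 led with 10571 ± 174 CPM per kb (SD, n = 3), which placed it at rank 21 of 6588 genes. CDC19 (3947 ± 63.1), PDC1 (3407 ± 28.4), TDH2 (3067 ± 193), PGK1 (2615 ± 215) and ENO2 (2512 ± 176) followed, and only PGK1 and ENO2 overlapped in this order. HXK1 (1411 ± 131), TDH1 (1068 ± 18.7), GLK1 (975 ± 82.6) and HXK2 (603 ± 77.3) were lower, each without overlap with the next. In CPTH2, HXK1 came to the second place, at 6308 ± 1341 CPM per kb and rank 31 of all genes, against rank 212 in DMSO. Its range there overlapped with that of PDC1, the next gene. HXK2 went to rank 728, against 364 in DMSO. In Curcumin the ranges of all neighbours from TDH3 (3189 ± 1174) down to GLK1 (867 ± 220) overlapped. Both intrabody strains began with TDH3, CDC19, PGK1, TDH2, ENO2 and PDC1, in that order of means. In scFv-58F the ranges of CDC19 and PGK1, of PGK1 and TDH2, and of ENO2 and PDC1 overlapped. In scFv-645 those of PGK1 and TDH2 and of TDH2 and ENO2 overlapped.

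**Figure D1:**
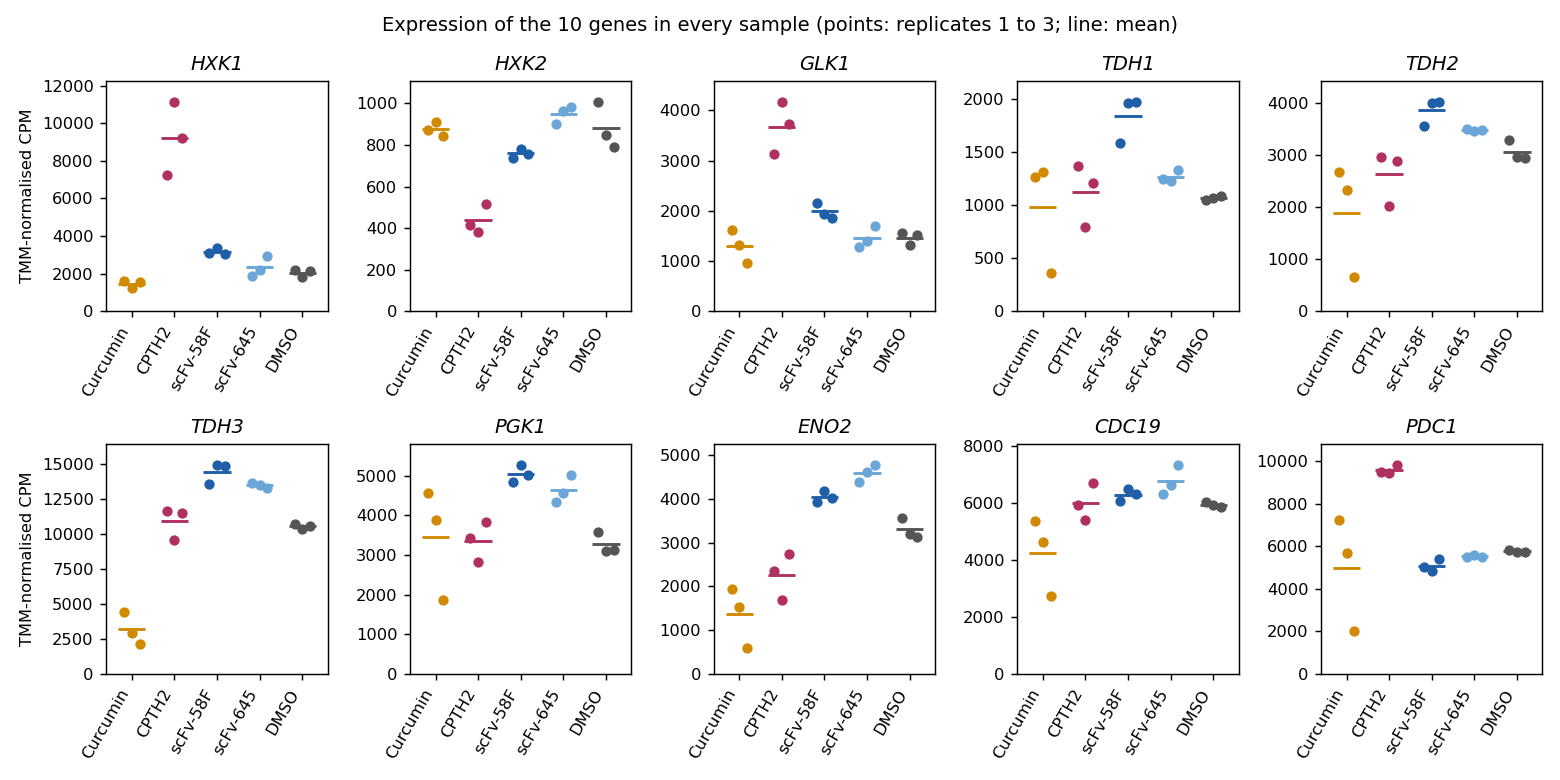
TMM-normalised CPM (linear axes that start at 0) of the 10 genes in every sample; points are replicates 1 to 3 of each group and lines are group means. HXK1 lay between 7225 and 11134 CPM in CPTH2, above all other samples, TDH3 lay at 4462 CPM or less in Curcumin, below all other samples, and replicate 3, the rightmost Curcumin point, was the lowest of its group in 9 of the 10 genes.

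CPTH2 altered the glucose kinases in opposite directions and raised PDC1. In between, the TDH genes, PGK1 and CDC19 were little changed, and ENO2 was lower but under the fold-change cutoff. A gene was called when its fold change was at least 1.5 and its p-value in edgeR's quasi-likelihood test, adjusted over all 6588 genes by the Benjamini-Hochberg method, was below 0.05. By these criteria 3 of the 10 genes were higher and 1 was lower in CPTH2 than in DMSO, where 31.0% of all genes were called (14.1% higher and 16.9% lower). The median log2 fold change was 0.04 over the 10 genes and -0.03 over all genes. The groups did not overlap in 5 of the 10 genes, against 70.0% of all genes, and HXK1 stood at percentile 99.4 of all log2 fold changes.

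HXK1, hexokinase isoenzyme 1, had 7225, 11134 and 9230.3 CPM in the CPTH2 replicates, against 2196, 1840 and 2134 CPM in DMSO. Every CPTH2 culture was above every DMSO culture, and the log2 fold change was 2.16 ± 0.17 (SE, a fold change of 4.47, edgeR's quasi-likelihood test, adjusted p = 1.86e-05). GLK1, the glucokinase gene, had 3132, 4167 and 3731 CPM in CPTH2, against 1551, 1323 and 1522 CPM in DMSO. It was 2.51-fold higher, with no overlap (log2 fold change 1.33 ± 0.13, edgeR adjusted p = 5.47e-05). HXK2 is known as the hexokinase of cells growing on glucose, but in DMSO it was the lowest of HXK1, HXK2 and GLK1. HXK2 had 415, 383 and 518 CPM in CPTH2, against 1007, 847 and 789 CPM in DMSO. It was 2.01-fold lower, again without overlap (log2 fold change -1.01 ± 0.14, edgeR adjusted p = 0.000312). EMI2, a paralogue of GLK1, was likewise higher in CPTH2, at 1253 ± 33.5 CPM against 653 ± 48.2 CPM in DMSO (log2 fold change 0.94, edgeR adjusted p = 7.35e-05).

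The make-up of the glucose kinase reads shifted accordingly. HXK1 took 67.1%, 71.0% and 68.5% of the reads of HXK1, HXK2 and GLK1 together in the CPTH2 cultures, against 46.2%, 45.9% and 48.0% in DMSO. HXK2 took 3.38% ± 0.812 in CPTH2 (SD, n = 3) and 20.0% ± 1.96 in DMSO. Neither pair of groups overlapped, and both exact permutation tests (two-sided) gave p = 0.1, the smallest p that 3 against 3 cultures allow.

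The upstream sequences of HXK1 and GLK1 are shown because these genes rose together in CPTH2 and share a short motif. AGGGG is the core of the stress response element, which is bound by Msn2 and Msn4, activators known to act under stress and when glucose is short. The motif was searched on both strands over the 700 bases before each start codon, and 44.5% of 5999 yeast promoters held at least 1 copy. HXK1 held 5 copies, a number reached by 0.417% of promoters, and GLK1 held 3, as did 3.25% of promoters or more, while no copy was found in that window of HXK2. The sequences come from the RefSeq genome of the R64 (sacCer3) build, read in the direction of the gene, 5′ to 3′, with the motif in capitals (CCCCT where it lies on the opposite strand). The HXK1 stretches lie on the minus strand, at chrVI:255625-255653, chrVI:255569-255597, chrVI:255532-255560, chrVI:255511-255539 and chrVI:255370-255398, and those of GLK1 on the plus strand at chrIII:50644-50672 and chrIII:50652-50680, within 592 and 182 bases of the start codons.
HXK1 copy at 592: gtatactggttgCCCCTggccagatctca
HXK1 copy at 536: aagaatggcagtCCCCTtttgtttttccg
HXK1 copy at 499: gagcttcttatgCCCCTgaaccccactat
HXK1 copy at 478: cccactattctgCCCCTttgaaactcccg
HXK1 copy at 337: catttttttttaAGGGGttgatgaaaaga
GLK1 copy at 182: acggacggtcaaCCCCTttcagggggccc
GLK1 copy at 174: tcaacccctttcAGGGGgccccctatctt
The number after each name is the distance in bases from the start codon to the outer end of the motif. All copies of HXK1 but the nearest to the start codon lie on the opposite strand, and the remaining copy of GLK1, at 167, lies within the same stretch. A match of 5 letters is a description of the sequence, and TDH3, which also held 3 copies, was not called in CPTH2. TDH1 held 2 copies, PGK1, CDC19 and PDC1 held 1 each, and TDH2 and ENO2 held 0. Of these genes only PDC1 was called in CPTH2, so the motif was not confined to called genes. Whether it had a part in the rise of HXK1 and GLK1 was not tested.

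Below the kinases, few genes passed the threshold in CPTH2. PDC1, which turns pyruvate into acetaldehyde, had 9499, 9482 and 9851 CPM in CPTH2, against 5815, 5720 and 5759 CPM in DMSO. The groups were far apart (log2 fold change 0.74 ± 0.10, a fold change of 1.67, edgeR adjusted p = 0.000222), although the adjusted p was 0.0877 when all 5 groups shared a single edgeR model. ENO2 had 2344, 1693 and 2730 CPM in CPTH2 and 3565, 3199 and 3138 CPM in DMSO, without overlap. Its log2 fold change of -0.55 ± 0.17 stayed under the fold-change cutoff (edgeR adjusted p = 0.0169), and it was called without CPTH2 replicate 3 (-0.71, adjusted p = 0.00427). TDH1, TDH2, TDH3, PGK1 and CDC19 had log2 fold changes of -0.22 to 0.08, overlapped with DMSO and were not called (edgeR adjusted p of 0.236 to 0.907).

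Other genes of the pathway and its regulators were followed as lists. Of 16 further glycolytic and fermentative genes, 5 were called higher in CPTH2 and 1 lower. The higher ones were largely minor isozymes, with PDC6 at a log2 fold change of 0.97, PYK2 (a second pyruvate kinase) at 0.90 and PDC5 at 0.61, besides EMI2 and PFK26, which encodes a kinase that makes fructose-2,6-bisphosphate. GPM3, a paralogue of phosphoglycerate mutase, was lower at -1.12. The ethanol-forming dehydrogenase gene ADH1 had a log2 fold change of -0.46 (edgeR adjusted p = 0.0329) and ENO1 of 0.10, and neither was called. All these called genes had adjusted p-values between 2.03e-05 and 0.000283 in edgeR's quasi-likelihood test, and PDC6 reached 0.0593 in the model of all 5 groups.

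Of 10 genes under glucose repression, 8 were called higher in CPTH2 and 0 lower, with a median log2 fold change of 1.02. SUC2, the invertase gene, was the largest at 3.57, with 1226, 2013 and 1765 CPM in CPTH2 against 144, 133 and 145 CPM in DMSO. JEN1, a lactate transporter gene, was at 1.97 and MLS1, a malate synthase gene of the glyoxylate cycle, at 1.96. All 10 genes of a list of Msn2/4 targets were called higher, with a median of 1.55, led by HSP26 (4.90), HSP12 (2.26) and CTT1 (1.72), which encode small heat shock proteins and the cytosolic catalase. Over all genes 14.1% were called higher and 16.9% lower. These lists, like those of the other pathway genes and regulators, were chosen with earlier results of these data known. Their counts are therefore descriptions in every comparison. Among 9 regulators, MTH1, a corepressor of hexose transporter genes, was higher (1.05), while TYE7, an activator of glycolytic genes, and STD1 were lower (-0.83 and -0.62). In the model of all 5 groups TYE7 and STD1 were not called (edgeR adjusted p of 0.233 and 0.128), and STD1 was also lost without DMSO replicate 1, at -0.58, just under the cutoff.

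**Figure D2:**
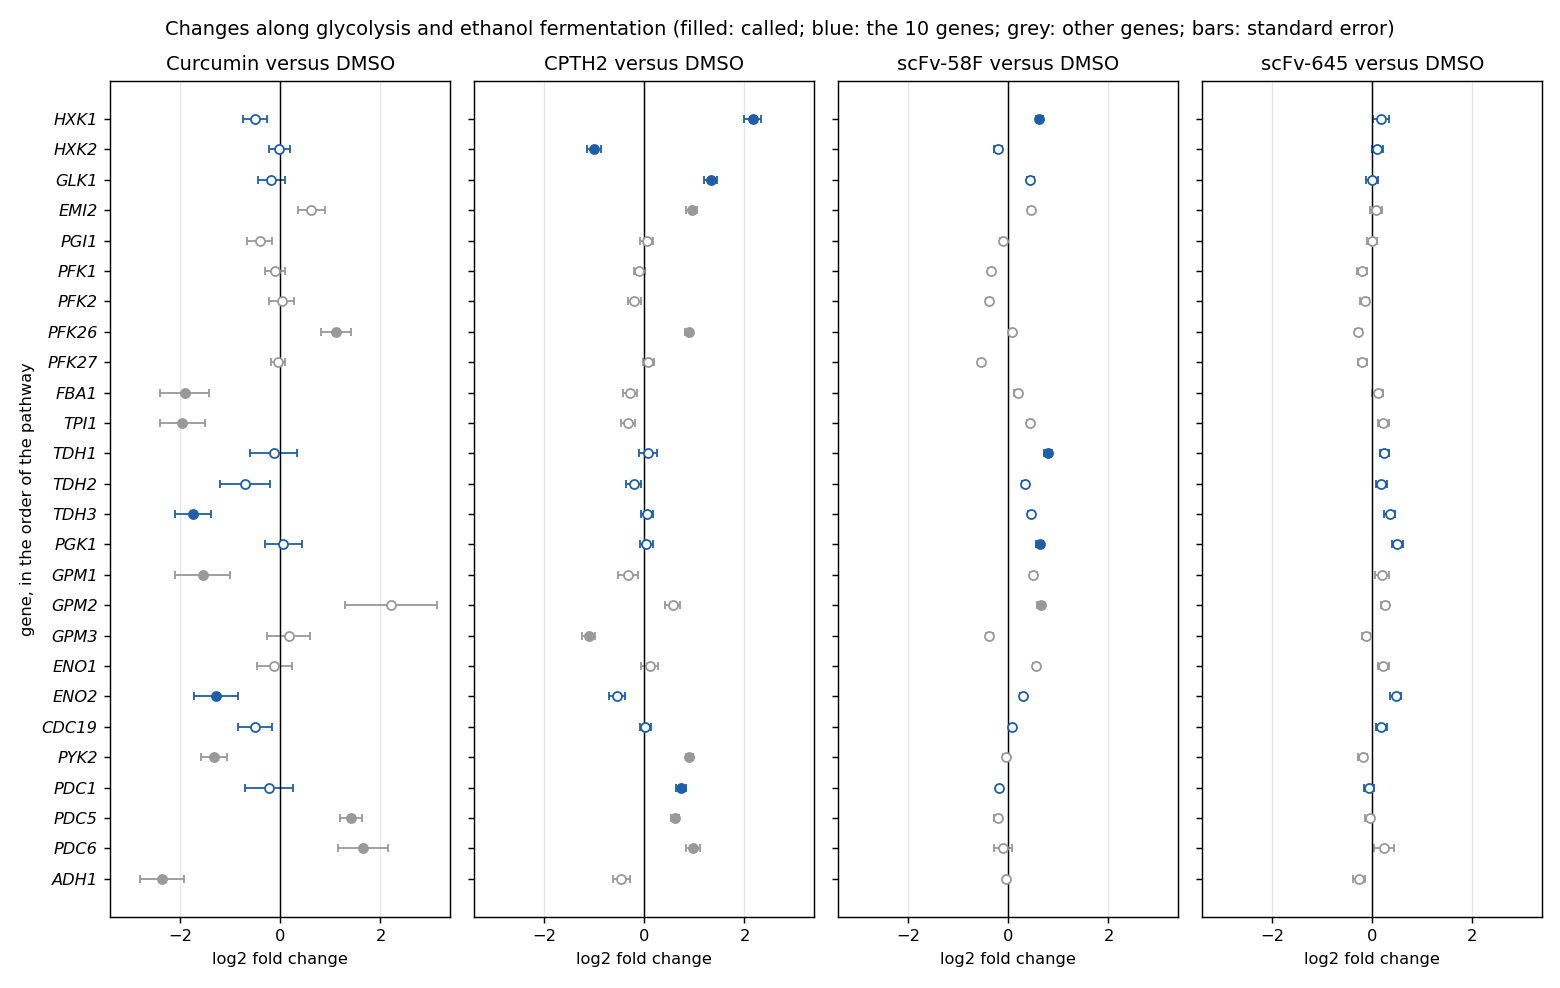
Log2 fold changes with standard errors of 26 genes in the order of the pathway, for each condition against the same 3 DMSO samples; filled points are called (adjusted p below 0.05 and fold change of at least 1.5), blue points are the 10 genes and grey points the 16 others. In CPTH2 the filled points lie at the glucose kinases, PDC1, PFK26 and minor isozymes or paralogues, in Curcumin FBA1, TPI1, TDH3, GPM1, ENO2, PYK2 and ADH1 lie to the left (ENO2 and GPM1 are not called under library size scaling), and in scFv-58F TDH1, PGK1, HXK1 and GPM2 are filled; 0 of the 10 genes are filled in scFv-645.

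Curcumin lowered TDH3 and, less firmly, ENO2, and raised none of the 10 genes by the call criteria. Altogether 2 of the 10 were called lower and 0 higher, whereas 52.6% of all genes were called in Curcumin against DMSO (24.7% lower and 27.9% higher). The unadjusted p of edgeR's test was below 0.05 in the same number of genes (0 higher and 2 lower), and DESeq2 also called 0 higher and 2 lower. The share of all genes below that unadjusted p was not computed, so this count has no background to be read against. The groups did not overlap in 5 of the 10 genes, against 69.6% of all genes. The median log2 fold change was -0.36 over the 10 genes and 0.03 over all tested genes. With the library size as the only scaling the median of all genes moved to 0.38, and the directions of GLK1, HXK2, TDH1 and PDC1, none of which was called, turned positive.

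TDH3 encodes the main glyceraldehyde-3-phosphate dehydrogenase. It had 4462, 2941 and 2155 CPM in the Curcumin replicates, against 10719.8, 10375.5 and 10585 CPM in DMSO. The groups were widely separated and TDH3 was 3.35-fold lower (log2 fold change -1.75 ± 0.37, edgeR's quasi-likelihood test, adjusted p = 0.00755). The call held under every alternative tried, with values of -2.05 to -1.52 when single samples were left out.

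ENO2, the enolase gene of cells on glucose, had 1942, 1529 and 603 CPM in Curcumin, against 3565, 3199 and 3138 CPM in DMSO. The groups did not overlap, and ENO2 was 2.46-fold lower (log2 fold change -1.30 ± 0.44, edgeR adjusted p = 0.0418). The call was lost with the library size as the only scaling (-0.94, edgeR adjusted p = 0.104), with the reads of ENO1 and ENO2 summed (-0.69, adjusted p = 0.182), and without Curcumin replicate 2 or any of the DMSO replicates (-1.39 to -1.25, edgeR adjusted p of 0.0996 to 0.113). ENO1, its near-identical partner, had 2564, 2821 and 1240 CPM in Curcumin and 2564, 2228 and 2340 CPM in DMSO. ENO1 overlapped between the groups and was not called, at -0.12.

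The values of TDH1, TDH2, PGK1, CDC19 and PDC1 depended on Curcumin replicate 3. TDH2 had 2679, 2336 and 662 CPM in Curcumin, against 3287, 2960 and 2945 CPM in DMSO. PDC1 had 7268, 5711 and 2032 CPM in Curcumin, against 5815, 5720 and 5759 CPM in DMSO. TDH1 had 1268, 1313 and 358 CPM in Curcumin, against 1048, 1067 and 1085 CPM in DMSO. In each of these genes replicate 3 lay far under the other Curcumin cultures, which were near the DMSO cultures. Without it the log2 fold changes were -0.30 for TDH2, 0.16 for PDC1, 0.27 for TDH1, 0.37 for PGK1 and -0.26 for CDC19, none called, and the called genes TDH3 and ENO2 remained lower at -1.52 and -0.93 (edgeR adjusted p of 0.0027 and 0.00593). CDC19 had 5367, 4620 and 2739 CPM in Curcumin and 6029, 5927 and 5840 CPM in DMSO, without overlap but not called (log2 fold change -0.50, edgeR adjusted p = 0.244).

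None of the glucose kinase genes was called in Curcumin. HXK1 had 1606, 1227 and 1569.9 CPM in Curcumin, against 2196, 1840 and 2134 CPM in DMSO. These groups did not overlap, but the difference did not pass the test (log2 fold change -0.50 ± 0.24, edgeR adjusted p = 0.116). HXK2 had 874, 912 and 845 CPM in Curcumin and 1007, 847 and 789 CPM in DMSO, and GLK1 had 1625, 1320 and 965 CPM in Curcumin and 1551, 1323 and 1522 CPM in DMSO. Both overlapped (log2 fold changes of -0.02 and -0.18), in contrast to the wide gaps that CPTH2 gave in the same genes.

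Within the TDH family the proportions moved. TDH3 took 53.1%, 44.6% and 67.9% of the TDH reads in Curcumin, against 71.2%, 72.0% and 72.4% in DMSO, and TDH1 took 15.1%, 19.9% and 11.3% in Curcumin, against 6.96%, 7.41% and 7.42% in DMSO. Both pairs of groups were apart, with p = 0.1 in two-sided exact permutation tests, the smallest possible p. The 10 genes together held 3.68%, 3.33% and 1.64% of all counts in Curcumin and 3.58% ± 0.118 in DMSO, a difference within the spread of the Curcumin cultures (exact permutation p = 0.3).

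The TDH sequences are shown because reads were up to 51 bases long and some can map to several of these genes. The coding sequences of TDH3 and TDH2 were identical at 95.8% of 999 bases and those of TDH3 and TDH1 at 88.9%. Of the 949 windows of 51 bases in TDH3, 226 (23.8%) also occurred in TDH2, so that reads from them could not be assigned. TDH2 shared 30.6% and TDH1 15.3% of its windows with another gene, and ENO2 shared 22.9% with ENO1, its partner at 94.8% identity. Stretches of coding bases 61 to 111, where TDH2 and TDH3 differ most, and 355 to 405, where they are identical, follow from the RefSeq R64 genome, 5′ to 3′, with capitals where the 3 genes are not all the same. They lie at chrX:338331-338381 and chrX:338625-338675 (plus strand) for TDH1, chrX:454571-454621 and chrX:454277-454327 (minus strand) for TDH2, and chrVII:883700-883750 and chrVII:883406-883456 (minus strand) for TDH3.
TDH1 bases 61 to 111: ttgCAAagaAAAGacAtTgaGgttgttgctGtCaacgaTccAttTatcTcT
TDH2 bases 61 to 111: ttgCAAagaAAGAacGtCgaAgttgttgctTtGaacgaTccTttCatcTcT
TDH3 bases 61 to 111: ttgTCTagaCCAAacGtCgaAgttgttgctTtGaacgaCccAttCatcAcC
TDH1 bases 355 to 405: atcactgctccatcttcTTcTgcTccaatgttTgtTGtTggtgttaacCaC
TDH2 bases 355 to 405: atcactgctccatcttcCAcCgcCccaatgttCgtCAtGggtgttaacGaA
TDH3 bases 355 to 405: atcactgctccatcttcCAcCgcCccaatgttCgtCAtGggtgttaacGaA
When the reads of TDH2 and TDH3 were summed, the sum was still lower in Curcumin than in DMSO (log2 fold change -1.44, edgeR adjusted p = 0.024). In the sum it does not matter to which of these genes a shared read was assigned. Reads that were counted for both or for neither, and reads shared with TDH1, remain an uncertainty.

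Of the 16 further pathway genes, 3 were called higher and 5 lower in Curcumin. These 8 calls became 4 without Curcumin replicate 2 or DMSO replicate 1 or 3, and 5 without DMSO replicate 2. The lower ones included ADH1, with 3541, 2570.1 and 1276 CPM in Curcumin against 12784, 12207 and 12678 CPM in DMSO, a 5.16-fold difference (log2 fold change -2.37 ± 0.44, edgeR adjusted p = 0.00496). TPI1 (-1.96), for triose-phosphate isomerase, FBA1 (-1.92), for aldolase, and PYK2 (-1.33) were also lower, as was GPM1 (-1.56). The minor decarboxylase genes PDC6 and PDC5 were higher, at 1.65 and 1.41, as was PFK26 (1.11). EMI2 was not called, at 0.62 (edgeR), but it was with the library size as the only scaling (0.97), with DESeq2 and in the model of all 5 groups (0.63 each) and without Curcumin replicate 1 (0.79), at adjusted p of 0.00801 to 0.0288. FBA1 was not called without Curcumin replicate 2 (-1.96) or without DMSO replicate 1 or 3 (-1.89 and -1.91, edgeR adjusted p of 0.0504 to 0.0602 in the 3 cases), TPI1 not without Curcumin replicate 2 (-1.93, adjusted p = 0.0508), and PDC6 not without Curcumin replicate 2 or any DMSO replicate (edgeR adjusted p of 0.0566 to 0.0834). Without Curcumin replicate 3 PDC6 stayed called, at 0.96. GPM1, a phosphoglycerate mutase gene, was not called without Curcumin replicate 2 or any DMSO replicate (edgeR adjusted p of 0.108 to 0.135), with the library size as the only scaling (-1.20, adjusted p = 0.0963), with DESeq2's size factors (0.0504) or with at least 10 counts in every sample (0.0503). PFK26 was not called without any one of the DMSO replicates (edgeR adjusted p of 0.0617 to 0.0753).

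Among the regulators, RAP1 was higher in Curcumin, with 91.2, 150 and 313 CPM against 35.3, 38.0 and 37.2 CPM in DMSO (log2 fold change 2.31 ± 0.45, edgeR adjusted p = 0.00556). GCR1, the other activator of the pathway, had 140, 233 and 162 CPM in Curcumin against 58.1, 53.2 and 51.7 CPM in DMSO (1.70 ± 0.23, adjusted p = 0.00179). Both activator mRNAs were thus higher in cells in which TDH3, ADH1, TPI1 and FBA1 were lower. The remaining 7 regulators were not called, but 4 of the 9 were, all higher, with the library size as the only scaling, in the model of all 5 groups or without Curcumin replicate 3. The stress and glucose-repression lists moved in both directions, with 2 of 10 Msn2/4 targets higher and 3 lower (median log2 fold change 0.18), and 2 of 10 glucose-repressed genes higher and 2 lower (median -0.53). HSP26 was higher at 3.80, while GPH1, for glycogen phosphorylase, and SOL4, of the pentose phosphate pathway, were lower at -1.40 and -1.10. ACS1, for an acetyl-CoA synthetase, and REG2 were higher at 1.90 and 0.89 and ADH2, the glucose-repressed alcohol dehydrogenase gene, was lower at -1.49. GPH1 was not called without Curcumin replicate 2 or any DMSO replicate (-1.45 to -1.32) or with the library size as the only scaling (-1.05), SOL4 not without Curcumin replicate 2 (-1.05) or DMSO replicate 3 (-1.03), and REG2 not without DMSO replicate 2 (0.82). The 5 calls among Msn2/4 targets became 2 without Curcumin replicate 2 or DMSO replicate 1 or 2, and 1 without DMSO replicate 3. The 4 calls among glucose-repressed genes became 8 without Curcumin replicate 1 (2 higher and 6 lower) and 2 without DMSO replicate 2.

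Rap1 and Gcr1 motifs were searched in the same 700-base windows, since these factors are known to act side by side at the lower pathway. The Rap1 core ACCCANACA occurred on either strand in 3.92% of promoters and in 4 of the 10 genes, HXK1, TDH3, PGK1 and CDC19. The Gcr1 core CTTCC occurred in 77.9% of promoters and in 8 of the 10 genes, but not in TDH3 or HXK2. PGK1 held 5 copies and HXK1, ENO2, CDC19 and PDC1 held 4 each, a number that 8.82% of promoters reached or passed. PGK1 and CDC19 are shown because a CTTCC copy lies just after the Rap1 core (in PGK1 it runs past the end of the stretch printed), and TDH3 because it was the most lowered of the 10 genes in Curcumin. The sequences were read from the RefSeq R64 genome in the direction of the gene, 5′ to 3′, with the Rap1 core in capitals (its reverse complement in TDH3), at chrIII:137264-137292 (plus strand) for PGK1, chrI:71124-71152 (plus strand) for CDC19 and chrVII:884303-884331 (minus strand) for TDH3.
PGK1 Rap1 core: aactgaaaaaACCCAGACAcgctcgactt
CDC19 Rap1 core: aaaaatgtacACCCAGACAtcgggcttcc
TDH3 Rap1 core: acatcgtaggTGTCTGGGTgaacagttta
PGK1 and CDC19, which hold such a pair, were not called in Curcumin, and neither the matches nor their absence elsewhere say whether a factor was bound.

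**Figure D3:**
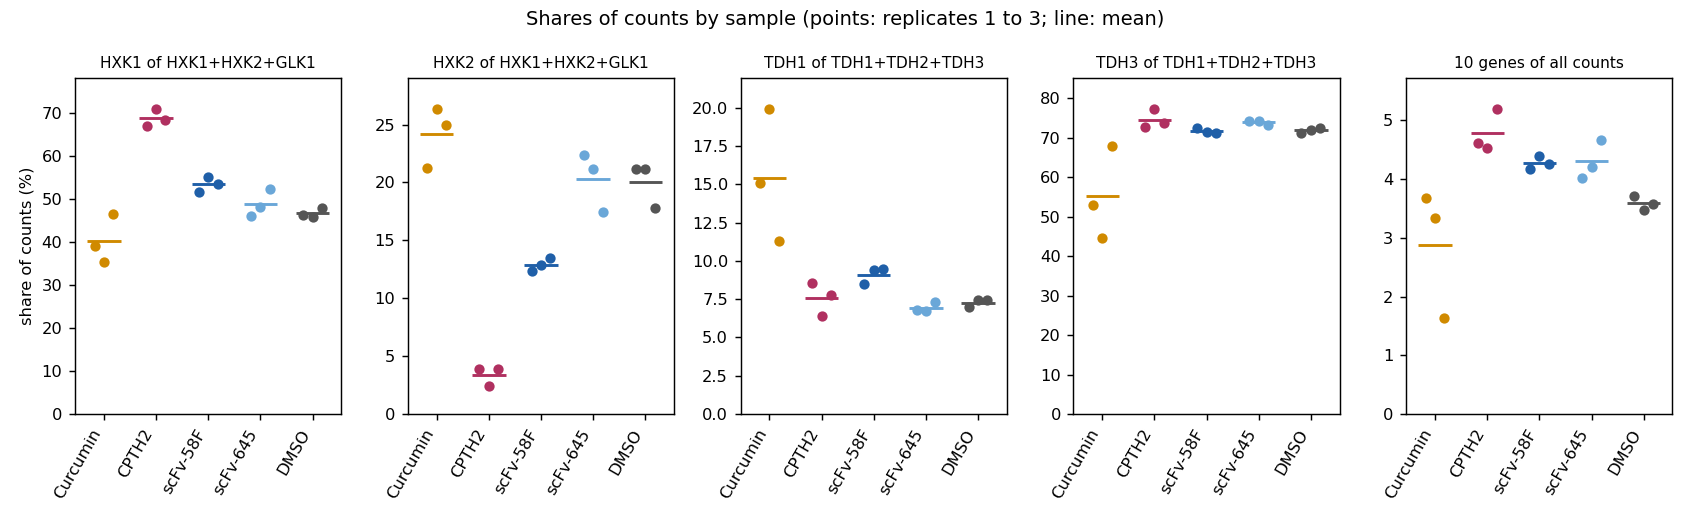
Percentage of counts (axes start at 0) taken by HXK1 and HXK2 among the glucose kinase genes, by TDH1 and TDH3 among the TDH genes, and by the 10 genes among all counts; points are replicates 1 to 3 and lines are means. HXK2 fell to 3.38% of the kinase reads in CPTH2 and 12.9% in scFv-58F, against 20.0% in DMSO, and TDH3 took 44.6% to 67.9% of the TDH reads in Curcumin, against 71.2% to 72.4% in DMSO.

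The 10 genes showed small differences in the scFv-58F strain, mostly upwards. TDH1, PGK1 and HXK1 were called higher than in DMSO and 0 of the 10 genes were called lower, whereas 7.41% of all genes were called (1.97% higher and 5.43% lower). On the adjusted p-value alone, 7 of the 10 genes were higher and 2 lower, where 49.0% of all genes passed (23.6% higher and 25.5% lower). The groups did not overlap in any of the 10 genes, with 8 higher in scFv-58F, against 57.5% of all genes without overlap (28.3% higher). The median log2 fold change was 0.39 over the 10 genes and 0.00 over all genes. In a single edgeR model of all 5 groups, whose estimate of the spread includes the Curcumin cultures, 0 of the 10 genes were called (adjusted p of 0.124 to 0.237 for TDH1, PGK1 and HXK1), and with the library size as the only scaling 1 was called.

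TDH1, the dehydrogenase isozyme that is known to rise as cells stop growing, had 1584, 1966 and 1976 CPM in scFv-58F, against 1048, 1067 and 1085 CPM in DMSO. Its log2 fold change was 0.79 ± 0.08 (a fold change of 1.72, edgeR's quasi-likelihood test, adjusted p = 2.43e-05). PGK1, which yields the first ATP of the pathway, had 4847, 5281 and 5022 CPM in scFv-58F, against 3581, 3108 and 3123 CPM in DMSO (0.62 ± 0.06, a fold change of 1.54, edgeR adjusted p = 2.54e-05). HXK1 had 3103, 3344 and 3020.0 CPM in scFv-58F, against 2196, 1840 and 2134 CPM in DMSO (0.62 ± 0.07, a fold change of 1.53, edgeR adjusted p = 5.61e-05). In all of them each scFv-58F culture was above each DMSO culture, but HXK1 and PGK1 lay close to the cutoff of 1.5. HXK1 fell under it without scFv-58F replicate 2 (0.58) or DMSO replicate 2 (0.54) and with the library size as the only scaling (0.56), as did PGK1 with the last (0.56).

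TDH3 had 13574, 14988 and 14872 CPM in scFv-58F, against 10719.8, 10375.5 and 10585 CPM in DMSO (log2 fold change 0.45, edgeR adjusted p = 6.83e-05). GLK1 had 2153, 1945 and 1862 CPM in scFv-58F, against 1551, 1323 and 1522 CPM in DMSO (0.44, edgeR adjusted p = 0.000686). These differences, like those of TDH2 (0.33) and ENO2 (0.29), passed the test but not the fold-change cutoff. Downwards, HXK2 had 739, 783 and 757 CPM in scFv-58F and 1007, 847 and 789 CPM in DMSO (-0.22, edgeR adjusted p = 0.04). PDC1 had 5052, 4856 and 5399.5 CPM in scFv-58F and 5815, 5720 and 5759 CPM in DMSO (-0.18, edgeR adjusted p = 0.0196). CDC19 was the only gene of the 10 that did not pass the test on the adjusted p-value, at 0.08 (edgeR adjusted p = 0.201).

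The glucose kinase reads were distributed differently in scFv-58F. HXK1 took 53.5% ± 1.65 of them in scFv-58F (SD, n = 3) and 46.7% ± 1.15 in DMSO, and HXK2 took 12.9% ± 0.553 in scFv-58F and 20.0% ± 1.96 in DMSO. TDH1 took 9.10% ± 0.553 of the TDH reads in scFv-58F and 7.26% ± 0.264 in DMSO. None of these groups overlapped, each with an exact permutation p of 0.1, the smallest that the design allows. As a share of all counts the 10 genes stood at 4.28% ± 0.112 in scFv-58F and 3.58% ± 0.118 in DMSO (exact permutation p = 0.1). This share was not higher in scFv-58F alone. It was 4.30% ± 0.336 in scFv-645 and 4.78% ± 0.359 in CPTH2, each with an exact permutation p of 0.1 against DMSO.

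Few other pathway genes passed the cutoff in scFv-58F. On the adjusted p-value alone 11 of the 16 passed, 6 higher and 5 lower, where 49.0% of all genes passed. GPM2, a paralogue of phosphoglycerate mutase, was the single one called of 16 (log2 fold change 0.64 ± 0.07, edgeR adjusted p = 2.95e-05), and it fell to 0.58, under the cutoff, without DMSO replicate 2 or with the library size as the only scaling. Among the genes not called, ENO1 was at 0.56 (called at 0.59 without scFv-58F replicate 1 and at 0.61 without DMSO replicate 1) and EMI2 at 0.45, with no overlap, while ADH1 (-0.04), PYK2 (-0.05) and PDC6 (-0.11) overlapped with DMSO and PDC5 (-0.21) did not. Of the 10 Msn2/4 targets 1 was called, HSP26 (1.64), with 101, 103 and 92.3 CPM in scFv-58F against 29.5, 31.2 and 34.0 CPM in DMSO. Of the 10 glucose-repressed genes 2 were called higher, ACS1 (0.82) and SUC2 (0.79), and of the 9 regulators 0 were called. In the model of all 5 groups GPM2, ACS1 and SUC2 were not called (edgeR adjusted p of 0.0674 to 0.646).

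With the unrelated intrabody scFv-645 none of the 10 genes was called against DMSO, where 4.02% of all genes were called (1.32% higher and 2.70% lower). The log2 fold changes were mostly smaller than in scFv-58F, but those of ENO2 (0.47 against 0.29) and CDC19 (0.18 against 0.08) were larger. At an unadjusted p below 0.05 from edgeR's test 4 genes were higher and 0 lower, a count without a background, since the share of all genes was not computed there. DESeq2 also called 0 by both criteria. PGK1, ENO2 and TDH3 passed the adjusted p-value alone, all higher, where 22.9% of all genes passed (10.7% higher and 12.2% lower). PGK1 had 4345, 4558 and 5031 CPM in scFv-645 and 3581, 3108 and 3123 CPM in DMSO (log2 fold change 0.50 ± 0.11, edgeR adjusted p = 0.00954). ENO2 had 4374, 4607 and 4778 CPM in scFv-645 and 3565, 3199 and 3138 CPM in DMSO (0.47 ± 0.11, edgeR adjusted p = 0.0102). TDH3 had 13687, 13554 and 13308 CPM in scFv-645 and 10719.8, 10375.5 and 10585 CPM in DMSO (0.35 ± 0.11, edgeR adjusted p = 0.0444). Each of these lay wholly above DMSO, and 7 of the 10 genes did not overlap between the groups (6 higher), against 41.5% of all genes (21.2% higher).

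HXK1 varied most in scFv-645, at 1850.3, 2198 and 2944 CPM, against 2196, 1840 and 2134 CPM in DMSO. The groups overlapped, as they did for HXK2 and GLK1, and without scFv-645 replicate 3 the log2 fold change of HXK1, 0.17 with all samples and not called, was -0.03. HXK1 took 48.8% ± 3.19 of the kinase reads in scFv-645 and 46.7% ± 1.15 in DMSO (exact permutation p = 0.4). The median log2 fold change was 0.18 over the 10 genes and 0.00 over all genes. None of the 16 other pathway genes and 9 regulators was called. The isozyme genes lay between -0.27 for ADH1 and 0.22 for PDC6, with EMI2 at 0.07, ENO1 at 0.22, PYK2 at -0.20 and PDC5 at -0.06. The same intrabody strain had HSP26 higher (1.23), ACS1 and SUC2 higher (0.62 each), and PCK1 and FBP1, the gluconeogenic genes, lower (-1.31 and -0.76). ACS1 had 71.4, 73.1 and 117 CPM in scFv-645 against 52.4, 54.2 and 62.1 CPM in DMSO, and its call was lost without scFv-645 replicate 3 (0.36) or DMSO replicate 1 or 2 (0.57 and 0.59) and with DESeq2 (adjusted p = 0.0622). The SUC2 call was lost without scFv-645 replicate 3 (0.47) or DMSO replicate 2 (0.58), that of FBP1 without DMSO replicate 3 (-0.57), and in the model of all 5 groups HSP26, ACS1, SUC2, PCK1 and FBP1 were not called (edgeR adjusted p of 0.137 to 0.56).

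Between the intrabody strains, 0 of the 10 genes were called, where 2.79% of all genes were called (0.668% higher and 2.13% lower in scFv-58F). At an unadjusted p below 0.05 from edgeR's test 3 were higher and 1 lower in scFv-58F, again without a computed share of all genes. DESeq2 also called 0. On the adjusted p-value alone TDH1 and GLK1 were higher and HXK2 lower in scFv-58F, where 21.5% of all genes passed (8.36% higher and 13.1% lower). TDH1 had 1584, 1966 and 1976 CPM in scFv-58F, against 1247, 1226 and 1330.0 CPM in scFv-645 (log2 fold change 0.54 ± 0.11, edgeR adjusted p = 0.00559). GLK1 had 2153, 1945 and 1862 CPM in scFv-58F, against 1276, 1398 and 1705 CPM in scFv-645 (0.44 ± 0.12, edgeR adjusted p = 0.0229). HXK2 had 739, 783 and 757 CPM in scFv-58F, against 899, 964 and 984 CPM in scFv-645 (-0.32 ± 0.08, edgeR adjusted p = 0.0156). The strains were thus apart in these genes, and in 7 of the 10 in all, against 38.9% of all genes.

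HXK1 had 3103, 3344 and 3020.0 CPM in scFv-58F and 1850.3, 2198 and 2944 CPM in scFv-645, without overlap but only just (log2 fold change 0.44 ± 0.15, edgeR adjusted p = 0.0632). Without scFv-645 replicate 3 it was called, at 0.64 (edgeR adjusted p = 0.000277), and without scFv-58F replicate 1 TDH1 was called, at 0.63. The abundant genes TDH3, PGK1 and CDC19 overlapped between the strains, with log2 fold changes of 0.10, 0.12 and -0.11. None of the 16 other pathway genes was called. Of the isozyme genes EMI2 was at 0.37 (edgeR adjusted p = 0.0287), ENO1 at 0.33, ADH1 at 0.22, PYK2 at 0.14, PDC5 at -0.17 and PDC6 at -0.34. Among the regulators TYE7 was lower in scFv-58F, with 41.0, 40.5 and 37.0 CPM against 60.3, 71.0 and 68.5 CPM in scFv-645 (-0.75 ± 0.08, edgeR adjusted p = 0.000444). HSP12 (0.82) and DDR2 (0.71) of the Msn2/4 targets and PCK1 (1.13) and FBP1 (0.82) of the glucose-repressed genes were higher in scFv-58F. Of these calls, PCK1 was lost without scFv-58F replicate 1 (0.57) or scFv-645 replicate 1 or 2 (0.98 and 1.24) and with DESeq2 (adjusted p = 0.0874), FBP1 without scFv-58F replicate 1 (0.46) or scFv-645 replicate 2 (0.87), and TYE7, HSP12, DDR2, PCK1 and FBP1 in the model of all 5 groups (edgeR adjusted p of 0.237 to 0.695).

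Curcumin and CPTH2 were compared at the doses used, 200 and 400 µM, which differ, so that drug and dose cannot be told apart. HXK1, GLK1 and TDH3 were called lower and HXK2 higher in Curcumin than in CPTH2, 4 of the 10 genes, where 50.3% of all genes were called (23.6% lower and 26.7% higher). HXK1 had 1606, 1227 and 1569.9 CPM in Curcumin, against 7225, 11134 and 9230.3 CPM in CPTH2 (log2 fold change -2.65 ± 0.37, edgeR adjusted p = 0.00173). GLK1 had 1625, 1320 and 965 CPM in Curcumin, against 3132, 4167 and 3731 CPM in CPTH2 (-1.49 ± 0.34, edgeR adjusted p = 0.00876). TDH3 had 4462, 2941 and 2155 CPM in Curcumin, against 11638, 9623 and 11507 CPM in CPTH2 (-1.78 ± 0.41, edgeR adjusted p = 0.00947). All of these were wholly separated, and HXK1 was at percentile 0.395 of all log2 fold changes.

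HXK2 was higher in Curcumin, with 874, 912 and 845 CPM against 415, 383 and 518 CPM in CPTH2 (log2 fold change 1.00 ± 0.25, edgeR adjusted p = 0.0125). Its call was lost without CPTH2 replicate 1 or 2 (0.96 and 0.92, edgeR adjusted p of 0.0635 and 0.073), and that of TDH3 without Curcumin replicate 2 (-1.73, edgeR adjusted p = 0.0555). PDC1 had 7268, 5711 and 2032 CPM in Curcumin and 9499, 9482 and 9851 CPM in CPTH2, without overlap but not called (-0.94 ± 0.51, edgeR adjusted p = 0.154), although it was called in the model of all 5 groups (edgeR adjusted p = 0.0188). The median log2 fold change was -0.61 over the 10 genes and 0.06 over all genes, and the groups did not overlap in 6 of the 10 genes, against 64.0% of all genes. Among the other genes of the 10, PGK1 (0.04), TDH1 (-0.19), TDH2 (-0.47) and ENO2 (-0.73) overlapped between the drugs and CDC19 (-0.50) did not, and none was called.

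Of the lists, 8 of 10 glucose-repressed genes were lower and 1 was higher in Curcumin than in CPTH2, with SUC2 at -3.03, MLS1 at -2.78 and PCK1 at -2.19. Of the Msn2/4 targets 7 of 10 were lower and 0 higher, led by GPH1 (-2.96), SOL4 (-2.61) and HSP12 (-2.24). Of the 9 regulators 4 were higher and 0 lower, with RAP1 at 2.39, GCR1 at 1.48 and STD1 at 1.41. Of the 16 other pathway genes 2 were higher and 4 lower, with PYK2 at -2.21, ADH1 at -1.89, FBA1 at -1.61 and PDC5 at 0.82, while PDC6 (0.70), ENO1 (-0.20) and EMI2 (-0.31) were not called. The 6 calls among the other pathway genes became 1 without Curcumin replicate 2 or CPTH2 replicate 3, 2 without CPTH2 replicate 1 and 3 without CPTH2 replicate 2, all lower in Curcumin, and the 4 regulators became 2 without Curcumin replicate 2 or any CPTH2 replicate. PDC6 was at 0.0027 without Curcumin replicate 3, and without Curcumin replicate 1 it was called, at 1.06 (edgeR adjusted p = 0.0347). The call of ADH1 was lost without Curcumin replicate 2 (-1.93) or CPTH2 replicate 3 (-1.82), those of STD1 and PDC5 without Curcumin replicate 2 or any CPTH2 replicate (1.39 to 1.48 and 0.81 to 0.84), and that of FBA1 in the same cases (-1.74 to -1.51) and with the library size as the only scaling (-1.30).

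Over the 15 samples several of the 10 genes varied together. The log2 CPM of HXK1 and GLK1 correlated at r = 0.956, and HXK1 and HXK2 at r = -0.888, values that were 0.990 and -0.918 over the 12 samples without Curcumin. TDH2 correlated with CDC19 at 0.943, with ENO2 at 0.935 and with TDH1 at 0.921, but at 0.621, 0.888 and 0.860 over the samples without Curcumin. These are descriptions over samples that share the same 5 conditions and the same scaling, and TDH2 shares reads with TDH1.

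Among all other genes the closest profile was sought for each of the 10. For HXK1, GLK1, PGK1 and CDC19 it was that of an annotated open reading frame overlapping the gene itself (r of 0.992 to 1.000), on the same strand for HXK1 and GLK1 and on the opposite strand for PGK1 and CDC19. Reads were counted without regard to strand. YAL037C-B covers 64.1% of CDC19 on the opposite strand and held 67.3% as many counts as CDC19, and YCR013C covers 47.6% of PGK1, so reads of these pairs cannot be told apart. The closest genes without overlap were MCP1 for HXK1 (r = 0.977), NDI1, an NADH dehydrogenase gene of mitochondria, for GLK1 (0.990), NOT5 for PGK1 (0.947) and SRP54 for CDC19 (0.981). They were NPT1 for HXK2 (0.973), ENO1 for TDH1 (0.977), SPN1 for TDH2 (0.977), CKB1 for TDH3 (0.995), GRX3 for ENO2 (0.980) and PKH3 for PDC1 (0.962), each over 15 samples that fall into 5 conditions. Only the profile of TDH1 was closest to that of another glycolytic gene.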

How the data were processed

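RNA from 15 yeast cultures was sequenced, and the sample labels gave each culture's group and replicate number. Per the methods, processing notes and file headers, bcl2fastq 1.8.4, FastQC, cutadapt, segemehl (sacCer3 genome) and NGSutils 0.5.9 were used to make the files. The authors deposited raw counts per gene, which ignore the strand. The counting was described as splitting multi-mapping reads over their positions. All deposited counts were whole numbers, however, so how such reads entered them cannot be told. The deposited CPM and RPKM columns were not used. Of 6692 gene identifiers 6008 matched the R64 annotation, 5981 with the same coordinates.

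The 6588 genes that reached 10 counts in 3 or more samples, all 10 genes included, were tested with edgeR 4.0.16 in R 4.3.3, using TMM scaling and a separate quasi-likelihood fit for the 6 samples of each comparison. The comparisons with DMSO share its 3 samples. Log2 CPM used a prior count of 2. The SE of a log2 fold change was derived from the F statistic of edgeR's test, as the absolute log2 fold change divided by the square root of F. Shares were compared with exact permutation tests (scipy 1.17.1). The edgeR procedure was tested on simulated counts at the library sizes of DMSO and CPTH2, with the same dispersion for all genes. These counts did not model the wider spread of the Curcumin cultures. A floor of 3 counts equals 1.59e-05% to 3.31e-05% of a sample and covers counting error only. P-values measure the spread between cultures of 1 experiment.

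The text names the 10 genes, the isozyme genes EMI2, ENO1, PYK2, PDC5, PDC6 and ADH1, the 3 called genes of each list with the largest absolute log2 fold change in a comparison, and the closest profiles. PFK26 and GPM1, named as the remainder of a small count, and TYE7 and STD1 where they are not among the largest, were added after their values were seen. The genes and lists were chosen with earlier results of these data known. Alternatives were DESeq2 1.42.0 (its Wald test and its size factors), library size scaling, TMM without the 10 genes, a joint model of the 5 groups, an unfiltered table (6675 genes) or a filter of 10 counts in all samples (6332 genes), calls without a fold-change cutoff, the replicate number as a block, summed paralogues, shares per kilobase, and each sample left out.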

Additional observations from a re-analysis of the deposited data

How the results depend on the processing

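With TMM scaling, 2 of the 10 genes were called in Curcumin against DMSO, but 1 with the library size as the only scaling and 1 with the paralogues summed, and 1 to 2 when single samples were left out. In scFv-58F against DMSO the count of 3 became 1 with the library size as the only scaling, 0 in the model of all 5 groups and 9 without the fold-change cutoff. Without that cutoff 3 genes were called in scFv-645 against DMSO and 3 between the intrabody strains, where leaving out samples gave 0 to 1. The other counts of the 10 genes stayed within 1.5 times their value in the alternatives run.

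The moves of the list counts in the comparisons with Curcumin stand beside those counts above. In scFv-58F against DMSO the 1 call among the 16 other pathway genes became 0 in the model of all 5 groups, 11 without the fold-change cutoff and 0 to 2 when single samples were left out. There the 1 call among Msn2/4 targets became 10 without the cutoff and up to 2 without single samples, and the 2 among glucose-repressed genes became 0 in the model of all 5 groups, 5 without the cutoff and 4 without scFv-58F replicate 3. In scFv-645 against DMSO the 4 calls among glucose-repressed genes became 0 in the model of all 5 groups and 2 without scFv-645 replicate 3 or DMSO replicate 2, and the 1 among Msn2/4 targets became 0 in that model, 2 without the cutoff and 2 without scFv-645 replicate 3. Between the intrabody strains the 2 glucose-repressed calls became 1 with DESeq2, 4 without the cutoff and 0 to 4 when single samples were left out, the 2 among Msn2/4 targets became 6 without the cutoff, and all calls on these lists became 0 in the model of all 5 groups. Without the cutoff the 16 other pathway genes had 2 calls in scFv-645 against DMSO and 4 between the strains, and the 9 regulators had 6 in CPTH2, 6 in scFv-58F and 3 in scFv-645 against DMSO and 4 between the strains. The regulators' 3 calls in CPTH2 became 1 in the model of all 5 groups.

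Sign changes concerned log2 fold changes of genes that were not called. With the library size as the only scaling they became 0.17 for GLK1, 0.34 for HXK2, 0.14 for PDC1, 0.23 for TDH1 and 0.24 for ENO1 in Curcumin against DMSO, 0.0071 for GLK1 in scFv-645 against DMSO, and 0.011 for EMI2, 0.12 for ENO1 and 0.13 for TDH1 in Curcumin against CPTH2. HXK2 was at 0.01 in Curcumin against DMSO with 10 counts in every sample, and the summed paralogues gave -0.0077 for TDH3 in CPTH2 against DMSO and 0.029 for ENO2 between the intrabody strains. Per kilobase, the share of the 10 genes in all counts was 0.0845 percentage points higher in Curcumin than in DMSO.

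Leaving out single samples gave, in Curcumin against DMSO, -0.34 to 0.18 for ENO1, -0.36 to 0.00075 for GLK1, -0.088 to 0.075 for HXK2, -0.57 to 0.16 for PDC1, -0.18 to 0.37 for PGK1 and -0.41 to 0.27 for TDH1. In CPTH2 against DMSO it gave -0.069 to 0.097 for CDC19, -0.00018 to 0.30 for ENO1, -0.063 to 0.16 for PGK1 and -0.069 to 0.28 for TDH1, and -0.205 to 0.891 percentage points for the difference in the TDH1 share. It gave -0.21 to 0.056 for PDC6 in scFv-58F against DMSO, and in scFv-645 against DMSO -0.050 to 0.14 for EMI2, -0.14 to 0.065 for GLK1, -0.025 to 0.31 for HXK1 and -0.13 to 0.0033 for PDC5. In Curcumin against CPTH2 it gave -0.43 to 0.081 for ENO1, -0.21 to 0.33 for PGK1 and -0.48 to 0.21 for TDH1.

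Replicates of the same number did not deviate together in every pair (mean r of -0.185 to 0.096 over the comparisons, and each sample correlated best with its own number only in Curcumin against CPTH2), so the numbers were not taken as pairs. With the replicate number as a block the counts of called genes among the 10 were 2, 4, 3, 0, 0 and 4 in the order of Curcumin, CPTH2, scFv-58F and scFv-645 against DMSO, scFv-58F against scFv-645 and Curcumin against CPTH2, as without it, and PGK1 turned to -0.031 in Curcumin against DMSO and -0.039 against CPTH2. With 3 cultures per group, the causes of these shifts were not tested.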
